A study of Mus musculus with 8 samples.

Results

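The 10 genes of the TNF family described here were followed in macrophages lacking the phosphatase gene Ptpn1 and in wild-type macrophages, with and without the cytokine IL-10. They were taken by name as 6 ligands (Tnf, Tnfsf14, Tnfsf9, Tnfsf12, Tnfsf13 and Tnfsf13b) and 4 receptors (Tnfrsf1a, Tnfrsf1b, Tnfrsf21 and Ltbr). The choice was made with earlier results of these data known. Rows for 9 of the 10 were read among the 11996 rows of the table, and Tnfsf12 was not analysed here. A row was kept for ratios if its mean over the columns reached 1 ppm of a column's total, which is 26.7 units of signal. That level kept 11400 rows and 8 of the family genes, all but Tnfsf13b. Tnfsf14 passed it only through its columns with IL-10.

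The labels describe 8 RNA-seq samples of peritoneal macrophages from C57BL/6 mice, drawn into the cavity by the irritant thioglycolate and left to adhere to plastic for 24 h. The 4 groups of 2 samples were Ptpn1-/- with IL-10 (100 ng/ml for 4 h), Ptpn1-/- with mock treatment, wildtype with the same IL-10 treatment, and wildtype with mock treatment; the Ptpn1-/- groups are called KO here and the wildtype groups WT. The labels used here give neither the number of mice nor any sharing of mice between treated and mock cells. The table gives 1 value per gene and group, so each value below is the authors' single value for a group, in units of signal, with no replicate spread, no SD and no test. Every column has the same total of 26705598, the sequencing depth behind it is unknown, and a difference is given as a log2 ratio after 1 ppm was added to both signals.

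Ligands of the TNF family are mostly trimeric membrane proteins, some of them also released by proteases, and they act by clustering receptors on neighbouring cells or on the same cell. Receptors with a death domain, such as Tnfrsf1a and Tnfrsf21, can signal toward cell death as well as NF-kB, whereas Tnfrsf1b and Ltbr recruit TRAF adaptors. Macrophages are a major source of TNF and carry both TNF receptors, and IL-10, acting through STAT3, is known for limiting TNF production in macrophages given microbial products. The labels name no such stimulus in these cultures.

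As a check of the genotype labels, Ptpn1 stood at 5391.5 units in KO cells with IL-10 and 3836.5 in KO mock cells, against 6736 in WT cells with IL-10 and 4960.5 in WT mock cells. KO cells thus had a lower Ptpn1 signal under each treatment, at log2 ratios of -0.32 with IL-10 and -0.37 under mock. The signal was not absent, and the labels do not say which part of the gene is deleted. Other genes, such as Lyz2 below, differed by more, so a gap of this size cannot by itself establish the genotypes. Of the 8 macrophage markers 7 had rows, with sums of 457682 and 458110 units in KO cells with IL-10 and mock, and 550828 and 643396 in WT cells. The lysozyme gene Lyz2 was lower in KO cells, at 136851.5 units in each KO column, against 272813 and 362618 in WT with IL-10 and mock (KO over WT log2 ratios of -0.995 and -1.41). Its WT mock value is the maximum shared by every column, so how far ratios at this height reflect RNA amounts is not known. The lower KO sums rest on Lyz2, as Cd68 was higher in KO cells, at 272612 units in each KO column and 226524 in each WT column. The Fc receptor gene Fcgr1 was also higher in KO cells, at log2 ratios of 0.61 with IL-10 and 0.79 under mock. The F4/80 gene Emr1 was nearly level, at -0.12 and 0.06. Csf1r, Itgam and Mertk were lower in KO cells, at -0.05, -0.21 and -0.26 with IL-10 and -0.14, -0.38 and -0.21 under mock. Of the other cell types, monocyte markers (4 of 4 with rows) summed to 1251 and 767.5 units in KO cells with IL-10 and mock, and to 714.5 and 417 in WT cells. Neutrophil markers (3 of 6) summed to 181 to 202 units in KO and 85.5 to 91 in WT columns. Most of that gap was Retnlg, at 121.5 and 109.5 units in KO with IL-10 and mock, and 26.5 and 29.5 in WT. S100a8 stood at 64 and 56.5 in KO, and 52 and 53 in WT, and S100a9 lay below the filter. Mast cell markers (5 of 5) summed to 456.5 to 525 units in KO and 316 to 337.5 in WT. Mesothelial and fibroblast markers (8 of 8) summed to 18360.5 to 18601.5 units in KO and 29402 to 30805.5 in WT, and B cell markers (3 of 5) to 119.5 to 122.5 in KO and 110 to 149 in WT. What part these cells had in any difference between genotypes or treatments below was not tested. In such bulk samples, more cells of a type and more RNA per cell cannot be told apart.

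Upstream sequence was read for the member with the largest IL-10 ratio (Tnfsf14) and for both TNF receptors, whose signals lay on opposite sides of their mock values with IL-10. The windows, from RefSeq on build GRCm38.p6, are the 250 bases before the start of transcription, 5′ to 3′ on the strand of the gene. They lie at chr17:57194182-57194431 on the minus strand (Tnfsf14), chr6:125349473-125349722 on the plus strand (Tnfrsf1a) and chr4:145246871-145247120 on the minus strand (Tnfrsf1b). Capitals mark matches on either strand to TTCNNNGAA, the palindromic core bound by STAT factors. The NF-kB consensus was searched as GGGRNNYYCC, with R for A or G and Y for C or T. On both strands, no match to it was found in any window of the members, and bases outside the windows were not searched.
Tnfsf14: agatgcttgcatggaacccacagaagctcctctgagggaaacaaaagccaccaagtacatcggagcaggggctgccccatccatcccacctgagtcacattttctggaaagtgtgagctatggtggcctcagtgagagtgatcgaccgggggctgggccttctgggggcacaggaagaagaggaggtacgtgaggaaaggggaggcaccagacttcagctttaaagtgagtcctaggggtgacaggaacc
Tnfrsf1a: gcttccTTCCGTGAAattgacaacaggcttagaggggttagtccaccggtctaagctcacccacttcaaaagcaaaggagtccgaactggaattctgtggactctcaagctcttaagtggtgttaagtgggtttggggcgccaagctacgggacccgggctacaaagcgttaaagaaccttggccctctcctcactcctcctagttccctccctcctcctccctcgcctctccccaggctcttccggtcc
Tnfrsf1b: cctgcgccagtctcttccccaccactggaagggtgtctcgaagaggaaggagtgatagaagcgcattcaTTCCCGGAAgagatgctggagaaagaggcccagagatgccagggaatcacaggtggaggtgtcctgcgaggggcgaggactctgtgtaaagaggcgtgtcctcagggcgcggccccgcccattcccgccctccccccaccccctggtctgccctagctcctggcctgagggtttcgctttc
Of the 10 genes, 8 had a window in the RefSeq table, all but Tnfsf9 and Tnfsf12. TTCNNNGAA was found in Tnfrsf1a, from 244 bases before the start, and in Tnfrsf1b, from 181 bases before it, and in no other window of the members. Over all 32851 windows of that table, 7.02% hold TTCNNNGAA and 7.25% hold the NF-kB consensus. These 2 motifs were settled on after 6 forms had been searched in the windows of the members and their matches seen. A looser NF-kB form, first used and then replaced by the consensus, matched the Tnfsf14 window alone among the members and 17.6% of all windows. A stricter NF-kB form matched no member and 3.90% of all windows. A stricter STAT form matched Tnfrsf1b (0.913% of all windows), and an interferon response form matched Tnfrsf1b and Tnfsf13b (2.98%). A match, or its lack, describes the letters of this window and says nothing of binding.

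Tnfsf14 encodes LIGHT, a ligand of Ltbr and of Tnfrsf14 that costimulates T cells and acts in lymphoid tissue. It was listed at 453.5 units in KO cells with IL-10 and 8 in KO mock cells, and at 201.5 units in WT cells with IL-10 and 5 in WT mock cells. Both mock values lie near the bottom of the table, at rank 11967 in KO and 11989 in WT of 11996, and both IL-10 values lie far above them. The log2 ratio was 3.79 in KO cells, at place 1 from the top of the 11400 kept genes, and 2.85 in WT cells, at place 4. These places hold for the pseudocount of 1 ppm and were not recomputed under other settings. With a pseudocount of 4 ppm the log2 ratios were 2.29 in KO and 1.46 in WT. The plain ratios of signal were 56.7 in KO and 40.3 in WT, and they rest on mock signals below the filter. The gene (ENSMUSG00000005824) lies at mm9 chromosome 17, 57328915 to 57333612, on the minus strand.

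Between the genotypes, Tnfsf14 with IL-10 stood 252 units higher in KO than in WT cells, at a log2 ratio of 1.07, whereas under mock the gap was 3 units at a log2 ratio of 0.13, which ran over 0.0005 to 0.68 under the other settings. The IL-10 log2 ratio of KO cells minus that of WT cells was 0.94, at place 17 from the top of the 11400. Without a pseudocount that difference was 0.49, because the KO mock signal of 8 then counts as 1.60 times the WT mock signal of 5. The KO over WT ratio of 1.07 was 0.86 with a pseudocount of 4 ppm and 0.998 once the trend over transcript length was subtracted, both under 2-fold. Other cells that can carry LIGHT are T cells and dendritic cells. Of the 8 T cell markers 5 had rows, with sums of 44953 and 37184 units in KO cells with IL-10 and mock, and 34860 and 33051 in WT cells, nearly all of it Il7r. Cd3e, Cd3g and Cd3d were not analysed here. Lck, a kinase of T cells, stood at 128 and 10 units in KO cells with IL-10 and mock, and at 105 and 11.5 in WT cells, while Thy1 stood at 89.5 and 90 in KO, and at 84 and 80 in WT. Of the 5 dendritic cell markers 3 had rows, with sums of 191.5 and 137 units in KO cells with IL-10 and mock, and 175 and 125 in WT. Cd209a was the dendritic cell marker past 2-fold with IL-10, at 72 and 14.5 units in KO with IL-10 and mock, and 61.5 and 6 in WT. No NK cell marker of the 5 was analysed here. Lck and Cd209a thus stood higher in the same columns as Tnfsf14. Their mock values lay below the filter, so, like Tnfsf14, both were kept only through their columns with IL-10. The other kept markers of those lists did not reach 2-fold with IL-10. What part any of these markers had in the Tnfsf14 signal was not tested.

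The pattern of Tnfsf14 over the 4 columns, as log2 signals around their own mean, was nearest to those of the endothelin receptor gene Ednrb (Euclidean distance 0.49), the STAT3-induced inhibitor Socs3 (0.51) and the SLAM family receptor Cd244 (0.68) among 9674 other genes reaching 5 ppm. Ednrb had IL-10 log2 ratios of 3.18 in KO and 3.17 in WT, so it differed by 0.01 between genotypes. Tnfsf14 differed by 0.94 in that setting and by 0.49 without a pseudocount. This likeness rests on 4 points.

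**Figure D1:**
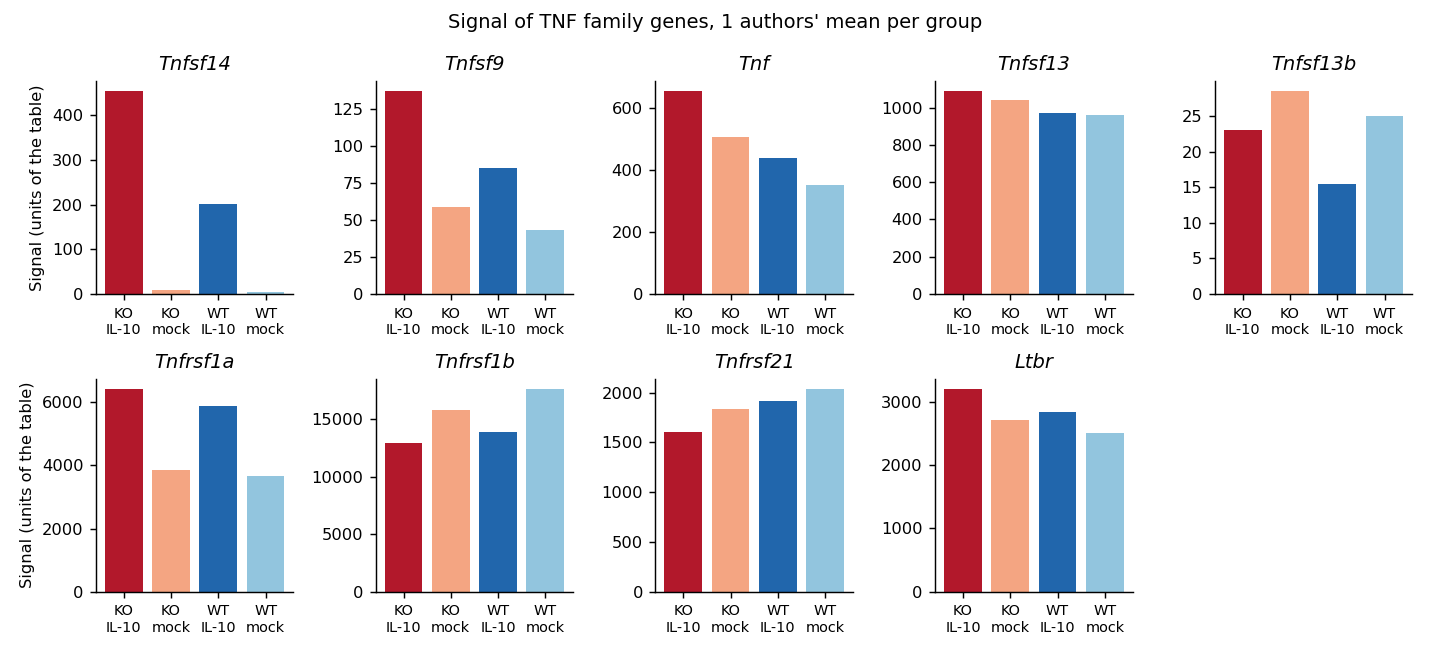
Signal of 9 TNF family genes in the 4 groups, 1 bar per group at the authors' single value, each panel with its own linear axis from 0 (KO, Ptpn1-/-; WT, wildtype). Tnfsf14 stands at 453.5 and 201.5 units in the IL-10 columns and at 8 and 5 in the mock columns, and Tnfrsf1b and Tnfrsf21 stand lower with IL-10 than under mock within each genotype.

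Tnfsf9 encodes a ligand of the costimulatory receptor Tnfrsf9 on T cells and is carried by activated antigen-presenting cells. It was listed at 137 units in KO cells with IL-10 and 58.5 in KO mock cells, against 85 in WT cells with IL-10 and 43.5 in WT mock cells. Each IL-10 value was above both mock values. The log2 ratio was 0.94 in KO and 0.67 in WT, at places 111 and 137 from the top of 11400, and neither reached 2-fold. With a pseudocount of 0.25 ppm the KO ratio was 1.14, and with 4 ppm it was 0.56, since these signals are low. The WT ratio with 4 ppm was 0.35. KO over WT was 0.55 with IL-10, or 0.35 with 4 ppm, and 0.28 under mock. That mock value was 0.14 with 4 ppm, 0.11 with the length trend subtracted and 0.43 with no pseudocount. The gene nearest in pattern was Ier3, an immediate early gene that NF-kB induces (distance 0.07), at 1035 and 554 units in KO with IL-10 and mock, and 690 and 435 in WT, followed by the Toll-like receptor adaptor Myd88 (0.09) and the growth factor gene Pdgfc (0.09).

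Tnfsf9 lies at mm9 chromosome 17, 57244808 to 57247180, on the plus strand, and Tnfsf14 is the next row of the table on that chromosome, 81734 bases away. On the far side of Tnfsf14, 21598 bases from it, the complement gene C3 had IL-10 log2 ratios of -0.05 in KO and -0.01 in WT. On the far side of Tnfsf9 lies the tubulin gene Tubb4a, at 0.23 and 0.12. Both TNF family ligands with rows at this locus thus had larger signals with IL-10 than under mock in KO and in WT cells, and neither flanking row reached 1.5-fold with IL-10. C3 itself was lower in KO than in WT cells, at log2 ratios of -0.68 with IL-10 and -0.65 under mock.

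Tnf, the founding ligand of the family and an inflammatory cytokine, had larger log2 ratios between genotypes than between treatments. That contrast shrank once the length trend was subtracted. Tnf stood at 654.5 units in KO cells with IL-10, 507 in KO mock cells, 438 in WT cells with IL-10 and 350.5 in WT mock cells. Both KO values were above both WT values. The log2 ratio of KO over WT was 0.55 with IL-10 and 0.50 under mock, at places 237 and 231 from the top, and the 2 ratios share no column. The IL-10 log2 ratio was 0.35 in KO and 0.30 in WT, a difference of 0.05, and none of these reached 2-fold. With the length trend subtracted, KO over WT was 0.47 with IL-10 and 0.35 under mock. The IL-10 ratios were then 0.35 in KO and 0.24 in WT, so the mock genotype ratio was level with the KO treatment ratio. Monocytes also make TNF, and their marker sums, given above, were higher in KO than in WT cells under each treatment. The KO over WT log2 ratio of the monocyte gene Ccr2 was 0.62 with IL-10 and 0.61 under mock; its part in the Tnf signal was not tested. Tnf (ENSMUSG00000024401) lies at mm9 chromosome 17, 35336326 to 35338952, on the minus strand. The next row toward lower positions, the leukocyte gene Lst1, was also higher in KO cells, at log2 ratios of 0.59 with IL-10 and 0.87 under mock, whereas Nfkbil1 on the other side had 0.03 and 0.22.

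Tnfsf13 encodes APRIL, a ligand that sustains B cells and plasma cells. It was nearly level, at 1088 units in KO cells with IL-10 and 1038.5 in KO mock cells, against 971.5 and 961 in WT cells with IL-10 and mock. The IL-10 log2 ratio was 0.07 in KO and 0.02 in WT, and KO over WT was 0.16 with IL-10 and 0.11 under mock; with the length trend subtracted, the WT IL-10 value became -0.05, and KO over WT became 0.07 with IL-10 and -0.05 under mock. All 2853 bases of its row (mm9 chromosome 11, 69496434 to 69499286) lie within that of BC096441 on the same strand, whose identifier GENCODE M21 names Tnfsfm13, so the share of reads given to each is uncertain. BC096441 stood at 4163 and 4099.5 units in KO with IL-10 and mock, and at 4006 and 3641 in WT. A row on the opposite strand, 2010012P19Rik, also covers it, and whether the counting used strand is not given in the sources used here.

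Tnfsf13b, which encodes the B cell survival factor BAFF, lay below the filter at 23 units in KO cells with IL-10 and 28.5 in KO mock cells, and 15.5 and 25 in WT cells with IL-10 and mock. It was the 1 ligand with rows whose IL-10 values were below its mock values in both genotypes, at signals too low for a ratio to be weighed.

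Tnfrsf1a, the receptor through which soluble TNF mainly signals, was higher with IL-10 in both genotypes by a similar amount. Its signal was 6423.5 units in KO cells with IL-10 and 3854 in KO mock cells, and 5873 units in WT cells with IL-10 and 3650 in WT mock cells. Every IL-10 value was above every mock value. The log2 ratio was 0.73 in KO and 0.68 in WT, at places 185 and 132 from the top, and the genotypes' ratios differed by 0.05. KO over WT was 0.13 with IL-10 and 0.08 under mock, and these were 0.07 and -0.03 with the length trend subtracted.

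Tnfrsf1b, which binds membrane TNF well and lacks a death domain, was lower with IL-10. It stood at 12890 units in KO cells with IL-10 and 15784 in KO mock cells, against 13874 in WT cells with IL-10 and 17607 in WT mock cells. Every IL-10 value was below every mock value. The log2 ratios were -0.29 in KO and -0.34 in WT, at places 635 and 397 from the bottom of 11400. By rank of signal within a column, Tnfrsf1b was at 272 with IL-10 and 207 under mock in KO cells, and at 244 and 168 in WT cells, while Tnfrsf1a was at 633 and 1159 in KO, and at 687 and 1231 in WT. In the main setting, the IL-10 log2 ratio of Tnfrsf1a minus that of Tnfrsf1b was 1.02 in KO and 1.03 in WT. That is a shift of about 2-fold in the balance of the 2 transcripts, and it differed by -0.00072 between genotypes. With the length trend subtracted, the match was less close, at 0.73 (Tnfrsf1a) and -0.27 (Tnfrsf1b) in KO, and 0.63 and -0.33 in WT. As each group has 1 value, how closely the genotypes match cannot be judged. The signal of Tnfrsf1a divided by that of Tnfrsf1b was 0.498 and 0.244 in KO with IL-10 and mock, and 0.423 and 0.207 in WT; as transcript length differs between the genes, the shift and not the level can be compared. Neither receptor alone reached 2-fold. The rows lie at mm9 chromosome 6, 125307783 to 125311796 (Tnfrsf1a, plus strand), and chromosome 4, 144803366 to 144836773 (Tnfrsf1b, minus strand).

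Ltbr, the lymphotoxin beta receptor, which binds LIGHT, was listed at 3205 units in KO cells with IL-10 and 2717.5 in KO mock cells, and at 2837 and 2502 in WT cells with IL-10 and mock. The log2 ratios with IL-10 were 0.24 in KO and 0.18 in WT. Its row spans 533 bases (mm9 chromosome 6, 125262751 to 125263283), less than the 2107 bases of its longest transcript in GENCODE M21, so the part of the gene that the signal counts is not known. Tnfrsf14, the other LIGHT receptor, stood at 276 and 209.5 units in KO with IL-10 and mock, and at 250 and 271 in WT, with IL-10 log2 ratios of 0.36 and -0.11. Neither receptor of LIGHT thus came near the ratio of the ligand.

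Tnfrsf21, or death receptor 6, can trigger cell death and limits T cell responses. It stood at 1604.5 units in KO cells with IL-10, 1832.5 in KO mock cells, 1913.5 in WT cells with IL-10 and 2038 in WT mock cells. Both KO values were below both WT values. KO over WT was -0.25 with IL-10 and -0.15 under mock, and IL-10 over mock was -0.19 in KO and -0.09 in WT. Of the receptors for the remaining ligands, the TWEAK receptor Tnfrsf12a had IL-10 log2 ratios of -0.35 in KO and -0.12 in WT, and Tnfrsf13b, which binds APRIL and BAFF, 0.19 and 0.22; Tnfrsf9, Tnfrsf13c and Tnfrsf17 were not analysed here. These receptors, Tnfrsf14 and the neighbouring rows were chosen for their pairing or position after values had been seen.

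**Figure D2:**
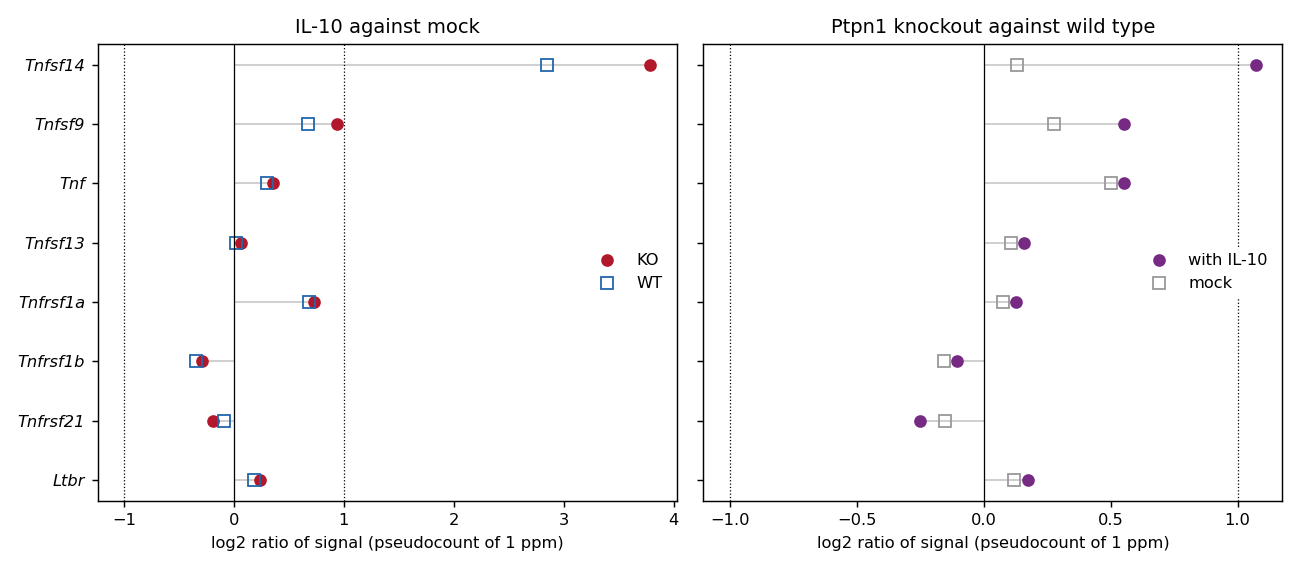
Log2 ratios of signal for the 8 kept TNF family genes, with IL-10 over mock on the left (KO, filled circles; WT, open squares) and KO over WT on the right (with IL-10, filled circles; mock, open squares), and dotted lines at 2-fold. Tnfsf14 passes 2-fold with IL-10 in both genotypes and between genotypes with IL-10, and Tnfrsf1b and Tnfrsf21 lie below 0 throughout.

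Counted over the 8 kept genes, 1 (Tnfsf14) was at least 2-fold higher with IL-10 in KO cells, where 0.877% of all kept genes were, and none was 2-fold lower, against 0.0175% of all. In WT cells the count was again Tnfsf14 alone and none lower, against 0.465% and 0.0175% of all kept genes. At 1.5-fold, Tnfsf14, Tnfsf9 and Tnfrsf1a were higher with IL-10 in both genotypes, against 2.32% of all kept genes in KO and 1.54% in WT. Between KO and WT cells with IL-10, Tnfsf14 was the 1 gene past 2-fold, against 0.596% of all genes higher and 0.0789% lower. Under mock none of the 8 reached 2-fold between genotypes, against 0.325% higher and 0.105% lower. None differed 2-fold in its IL-10 log2 ratio between genotypes, against 0.0965% of all genes upward and 0.0351% downward. Tnfsf14 entered these counts only through columns in which it was high, so they are descriptions. The median IL-10 log2 ratio of the 8 genes was 0.29 in KO and 0.24 in WT, beside -0.01 and 0.00 over all kept genes, and 6 of the 8 were above 0 in each genotype, where 45.2% of all kept genes were in KO and 49.6% in WT. A comparison of treatments within a genotype and one of genotypes within a treatment share a column, so they are not independent of each other.

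**Figure D3:**
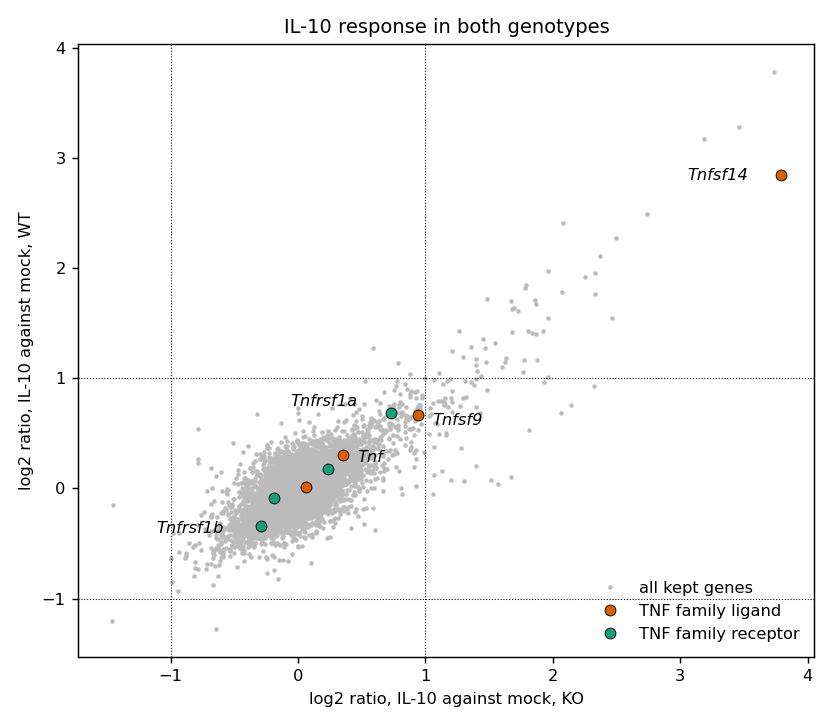
IL-10 log2 ratio in KO cells (horizontal) and in WT cells (vertical) for all 11400 kept genes, with the TNF family ligands and receptors coloured and dotted lines at 2-fold. Tnfsf14 lies at 3.79 and 2.85, Tnfsf9 and Tnfrsf1a lie at the upper edge of the main cloud, and Tnfrsf1b lies at -0.29 and -0.34.

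The wider family and the pathway around it were read from 6 lists, which hold 92 distinct kept genes. With IL-10, 3 of them (Tnfsf14, Cd40 and Il1b) were at least 2-fold higher in KO cells, or 3.26% beside 0.877% of all kept genes, and 2 (Tnfsf14 and Il1b) in WT cells, or 2.17% beside 0.465%. Tnfsf14 and Il1b were kept only through their columns with IL-10, and the lists include the members. These shares are therefore descriptions and no measure of enrichment. Of 18 TNF family ligands 6 had rows and 4 were kept, and these 4 are the members described above. Of 28 receptors 19 had rows and 18 were kept, and the 1 past 2-fold was Cd40, the costimulatory receptor of antigen-presenting cells. It stood at 417 units in KO cells with IL-10 and 180 in KO mock cells, against 224.5 in WT cells with IL-10 and 118 in WT mock cells. Both IL-10 values were above both mock values, and the log2 ratio was 1.10 in KO and 0.80 in WT. KO over WT was 0.82 with IL-10 and 0.51 under mock for Cd40. The median IL-10 log2 ratio of the 18 receptors was 0.14 in KO and -0.01 in WT, or 0.02 in WT with the length trend subtracted. The mouse receptor Tnfrsf26, picked out after its values were seen, had IL-10 log2 ratios of 0.79 in KO and 0.73 in WT; it belongs to a cluster of like genes with Tnfrsf22 and Tnfrsf23, so reads may be shared among them.

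Below the receptors, 0 of 23 adaptors, kinases and ubiquitin enzymes reached 2-fold in the 5 comparisons, which is close to the background of at most 0.877% of all kept genes, and their median IL-10 log2 ratio was 0.03 in KO and 0.02 in WT. In KO cells the largest were those of Birc3, a ubiquitin ligase that NF-kB also induces, at 1081 and 784 units in KO with IL-10 and mock, and 978.5 and 747.5 in WT (log2 ratios 0.45 and 0.38), and of Map3k14, the kinase of the alternative NF-kB pathway below Ltbr, at 352.5 and 256 in KO, and 297.5 and 276 in WT (0.42 and 0.10). The 13 inhibitors and death effectors also counted 0 past the limit, again near that background, with medians of 0.32 in KO and 0.09 in WT, or 0.19 in WT with the length trend subtracted. Mlkl, the executor of necroptosis, stood at 883 and 594 units in KO cells with IL-10 and mock, and at 541 and 443 in WT, with KO over WT log2 ratios of 0.68 with IL-10 and 0.40 under mock. Tnfaip3, which encodes the inhibitor A20, stood lower with IL-10, at 1128 and 1658.5 units in KO with IL-10 and mock, and 1330.5 and 1714.5 in WT, log2 ratios of -0.55 and -0.36.

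Among 17 genes for the release of ligands and receptors and for Tnf mRNA control, 0 reached 2-fold, near the same background of at most 0.877%, with medians of 0.07 in KO and -0.01 in WT, or 0.03 in WT with the length trend subtracted. Zfp36 encodes tristetraprolin, which destabilises Tnf mRNA, and stood at 6761 and 4108 units in KO with IL-10 and mock, and at 5729.5 and 3824 in WT, log2 ratios of 0.72 and 0.58. Both of its IL-10 values exceeded both mock values. Litaf, named for its proposed part in Tnf transcription, had ratios of 0.37 in KO and 0.76 in WT at 60431 and 46882 units in KO with IL-10 and mock, and 75615.5 and 44518 in WT, among the 54 highest signals of each column. Of 22 NF-kB targets that TNF induces, 21 had rows and were kept, and Il1b alone passed 2-fold with IL-10, at 61 and 14 units in KO with IL-10 and mock, and 48 and 9.5 in WT. Its mock values lay below the filter. The medians of that list were 0.25 in KO and 0.13 in WT. No kept gene of these 6 lists was 2-fold lower in any comparison, where 0.0175% to 0.105% of all kept genes were. With IL-10, Tnfsf14 alone was 2-fold higher in KO than in WT cells, or 1.09% of the list genes beside 0.596% of all kept genes. Under mock none was, beside 0.325% of all kept genes. These counts lie near the shares over all kept genes and are no trait of the lists. The lists were chosen with earlier results of these data known.

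**Figure D4:**
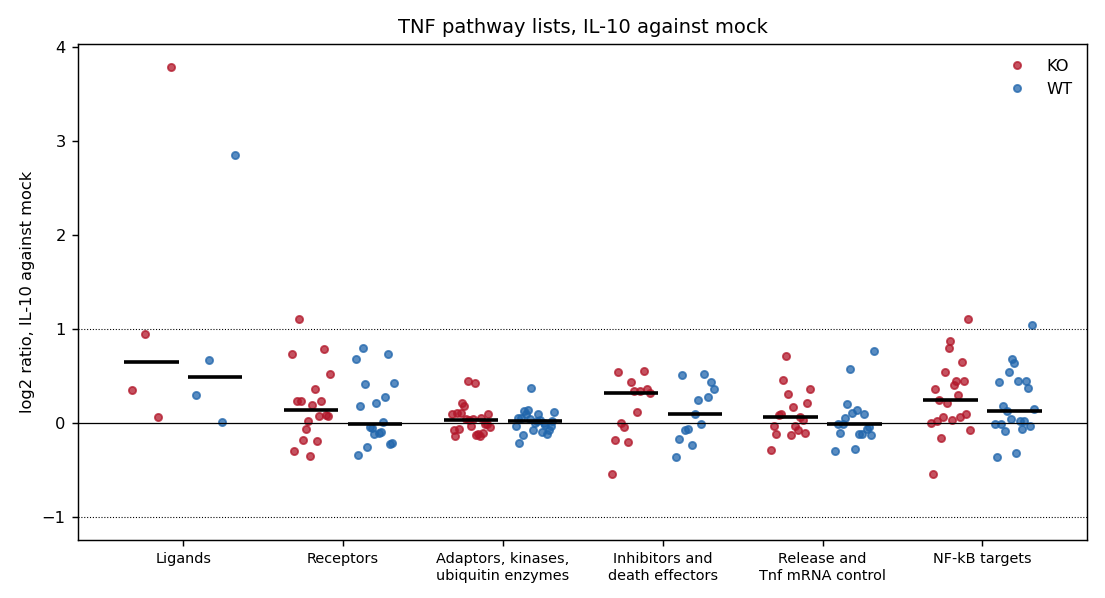
IL-10 log2 ratios of the kept genes of 6 TNF pathway lists in KO (left, red) and WT cells (right, blue), 1 point per gene, with a black line at each median and dotted lines at 2-fold; sideways spread has no meaning. Tnfsf14, Cd40 (KO) and Il1b pass 2-fold, and the adaptor list has medians of 0.03 in KO and 0.02 in WT.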

How the data were processed

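RNA-seq of 8 samples in 4 groups was reduced by the authors to 1 deposited signal per gene and group. The submitters' processing notes name RSEM, Bowtie and build mm9, with no version or role. No source used here states the annotation, how samples were averaged or any filter. The deposited signal cannot be CPM, since a column totals 26705598; values come in steps of 0.5, and 362618 is the maximum of every column. A distribution shared by all columns hides differences in depth and shifts of most genes at once, and with depth unknown no counting interval is given. The tests that need samples were not run.

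Log2 ratios were computed with Python 3.11.15, pandas 2.3.3 and statsmodels 0.14.6 (lowess, fraction 0.3), with a pseudocount of 1 ppm, a filter at 1 ppm and a limit of 2-fold in place of a test. Of the identifiers, 11797 had a transcript length in GENCODE M21. Log2 ratios fell with that length, at a Spearman rho of -0.53 for KO over WT under mock and -0.40 with IL-10. For IL-10 over mock the rho was -0.13 in KO and -0.36 in WT. For 38 names on more than 1 row the highest row stood in the lists. Named genes were the 10 members, list genes past 2-fold or else the 2 largest per list, and the 3 nearest in pattern to members ranging by at least 1 on the log2 scale. The members, the 6 gene lists, the 9 marker lists and the rules were chosen with earlier results of these data known.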

Additional observations from a re-analysis of the deposited data

How the results depend on the processing

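The count of members at least 2-fold apart was recomputed under 9 other settings. For IL-10 in KO the count of 1 became 2 with a pseudocount of 0.25 ppm, 2 with none (a setting chosen after seeing the data) and 3 at a limit of 1.5-fold. For IL-10 in WT it became 3 at 1.5-fold. For KO over WT with IL-10 the count of 1 became 0 with a pseudocount of 4 ppm and 0 with the length trend subtracted, where Tnfsf14 was at 0.86 and 0.998. For the difference between the genotypes' IL-10 ratios the count of 0 became 1 at 1.5-fold, which was Tnfsf14 at 0.94. Without a pseudocount its difference was 0.49, under that limit. The share of all kept genes past 1.5-fold in this comparison was not computed. The other settings left these counts as they were. Of 355 recomputed member ratios, none past 2-fold changed sign and 2 fell under the limit, both of Tnfsf14. Its IL-10 log2 ratio ranged over 2.29 to 5.82 in KO and 1.46 to 5.33 in WT with the pseudocount. Filtering at 5 ppm removed Tnfsf9. No paired analysis was possible because the table holds 1 column per group, and for the same reason no replicate could be left out. Single low signals, such as those of Tnfsf14 under mock, limit every ratio built on them.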
